A study of Mus musculus with 9 samples.

Results

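The homeostatic signature of microglia is a set of genes that these resident macrophages of the brain express at steady state and that set them apart from other macrophages. The signature examined here was a fixed list of 32 microglia-enriched genes, taken without the purinergic receptors, the TGF-beta pathway and most of the identity transcription factors, although the transcription factor genes Sall3 and Bhlhe41 were on it. A gene was measured if a probe set carried its symbol alone, and the brightest such probe set stood for it, which gave 30 of the 32 genes among 22180 named genes. Gal3st4 was found only on 2 probe sets shared with other genes, and Serpine2, a secreted inhibitor of thrombin, had no probe set in the annotation used, so neither is reported.

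Microglia were sorted by FACS from the brains of female C57Bl/6 mice at 24 to 28 weeks, and each of 9 samples was hybridised to 1 one-colour array. FAD DKO mice (3 arrays) carried the familial Alzheimer's disease transgenes, floxed Hdac1 and Hdac2 alleles and Cx3cr1CreERT2, a tamoxifen-inducible Cre recombinase expressed from the fractalkine receptor locus. FAD mice (3 arrays) carried the transgenes and the floxed alleles without the Cre, and the third group (3 arrays) was labelled wild type and named no transgene, floxed allele or Cre. Tamoxifen (8 mg, given at 6 weeks) was common to the 3 groups. FAD and wild type differed both in the transgenes and in the floxed alleles, and FAD DKO and FAD differed in the Cre itself as well as in the deletion, and these parts cannot be told apart. The labels do not say that arrays of a group came from separate animals, so the p-values rest on a spread between samples that may be technical.

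Homeostatic microglia survey and maintain the brain, and their signature depends on signals of the brain environment such as TGF-beta and on CSF1 receptor signalling. It is known to be lowered when microglia engage amyloid plaques and take up a lipid-handling, phagocytic state. Hdac1 and Hdac2 encode histone deacetylases, enzymes that remove acetyl groups from histones within corepressor complexes.

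The deposited values are log2 signals, with array medians between 5.35 and 5.40. The microglial markers P2ry12, Cx3cr1, Csf1r, Aif1, Itgam, Siglech and Trem2 lay between 10.03 and 12.27 on every array, which fits the labelled cell type. All 30 signature genes had a mean above the median of all probe sets. Hdac1 stood at 7.63, 7.41 and 7.64 in FAD DKO, against 8.03, 8.14 and 8.19 in FAD and 8.07, 8.65 and 8.60 in wild type. Hdac2 stood at 7.89, 7.61 and 7.90 in FAD DKO, against 8.56, 8.52 and 8.36 in FAD and 8.28, 8.39 and 8.22 in wild type. Both targeted genes were thus lowest on the 3 FAD DKO arrays, although the probes may lie outside the deleted parts. FAD DKO minus FAD was -0.56 for Hdac1 (limma adjusted p = 0.376) and -0.68 for Hdac2 (limma adjusted p = 0.159), so neither passed an adjusted p under 0.05. FAD minus wild type was -0.32 for Hdac1 and 0.19 for Hdac2.

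The signature as a whole was slightly lower in FAD microglia than in wild type, and most of its genes differed by little. In FAD, 25 of 30 signature genes had a mean below that of wild type (83.3%, against 52.1% of all genes), and the median difference was -0.13 on the log2 scale, against -0.01 over all genes. In sorted bulk samples, fewer cells carrying a transcript and less transcript per cell cannot be told apart. The differences ran between -0.42 (Cd164) and 0.16 (Abhd6). In limma 0 of 30 passed an adjusted p under 0.05, where 0.0406% of all genes did. With no adjustment, 7 were lower at a p under 0.05 (23.3%, against 4.02% of all genes), namely Cd164, Lrrc3, Slco2b1, Cryba4, Ltc4s, Ecscr and Olfml3, and 0 were higher (4.41% of all genes). The FAD and wild type arrays did not overlap for 12 signature genes that were lower in FAD (40%, against 5.46% of all genes) and for 2 that were higher, Abhd6 and Hpgds (6.67%, against 6.37%). The count of 7 rested on single arrays, since it was 4 without FAD replicate 1 and 11 without FAD replicate 3. Leaving out replicate 1 or 2 of wild type gave 3 and 4. The number of genes below 0 was between 25 and 27 when any 1 array was left out. The signature genes were chosen with earlier results of these data known, so their shares against all genes are a description and no independent support. All genes also include those of low signal, whereas the 30 signature genes lay above the median of all probe sets. The shares thus compare unlike genes, and both limits hold for the comparisons below.

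FAD DKO microglia set against FAD had signature genes on both sides. In FAD DKO, 11 of 30 signature genes lay below FAD (36.7%, against 46.7% of all genes), and the median difference was 0.03, against 0.01 over all genes. In limma 0 of 30 passed an adjusted p under 0.05, against 0.0225% of all genes. At an unadjusted p under 0.05, Crybb1, Hpgds and Rhob were lower (3 genes, 10%, against 4.41% of all genes) and Upk1b, Tmem119 and Selplg were higher (3 genes, 10%, against 3.69%). The arrays of FAD DKO and FAD did not overlap for 4 genes that were lower in FAD DKO (13.3%, against 6.5% of all genes). They did not overlap for 7 that were higher, namely Upk1b, Selplg, Sparc, Slco2b1, Nuak1, Bhlhe41 and Ctsf (23.3%, against 5.38%). FAD replicate 1 weighed on this comparison: without it, 15 of 30 genes lay below 0 and 3 had an unadjusted p under 0.05, in place of 11 and 6, and the median difference was 0.00. Without FAD replicate 3, 8 genes lay below 0 and the median difference was 0.07.

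FAD DKO microglia set against wild type had more signature genes below wild type than above it, with Upk1b (0.42) and Rapgef5 (0.24) the highest. Of the 30 genes, 21 lay below wild type (70%, against 48.6% of all genes), with a median difference of -0.06, against 0.00 over all genes. In limma 0 of 30 passed an adjusted p under 0.05, against 0.14% of all genes. Cd164 came nearest (adjusted p = 0.0764), followed by Upk1b (adjusted p = 0.145). At an unadjusted p under 0.05, 8 genes were lower (26.7%, against 4.19% of all genes), namely Cd164, Crybb1, Cryba4, Ltc4s, Rhob, Fcrls, Lpcat2 and Ecscr, and Upk1b alone was higher (3.33%, against 3.95%). The groups did not overlap for 12 genes that were lower in FAD DKO (40%, against 6.15% of all genes) and for 2 that were higher, Upk1b and Plxdc2 (6.67%, against 5.77%). The comparison shares its FAD DKO arrays with the second comparison and its wild type arrays with the first, so the counts are not independent of each other.

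**Figure D1:**
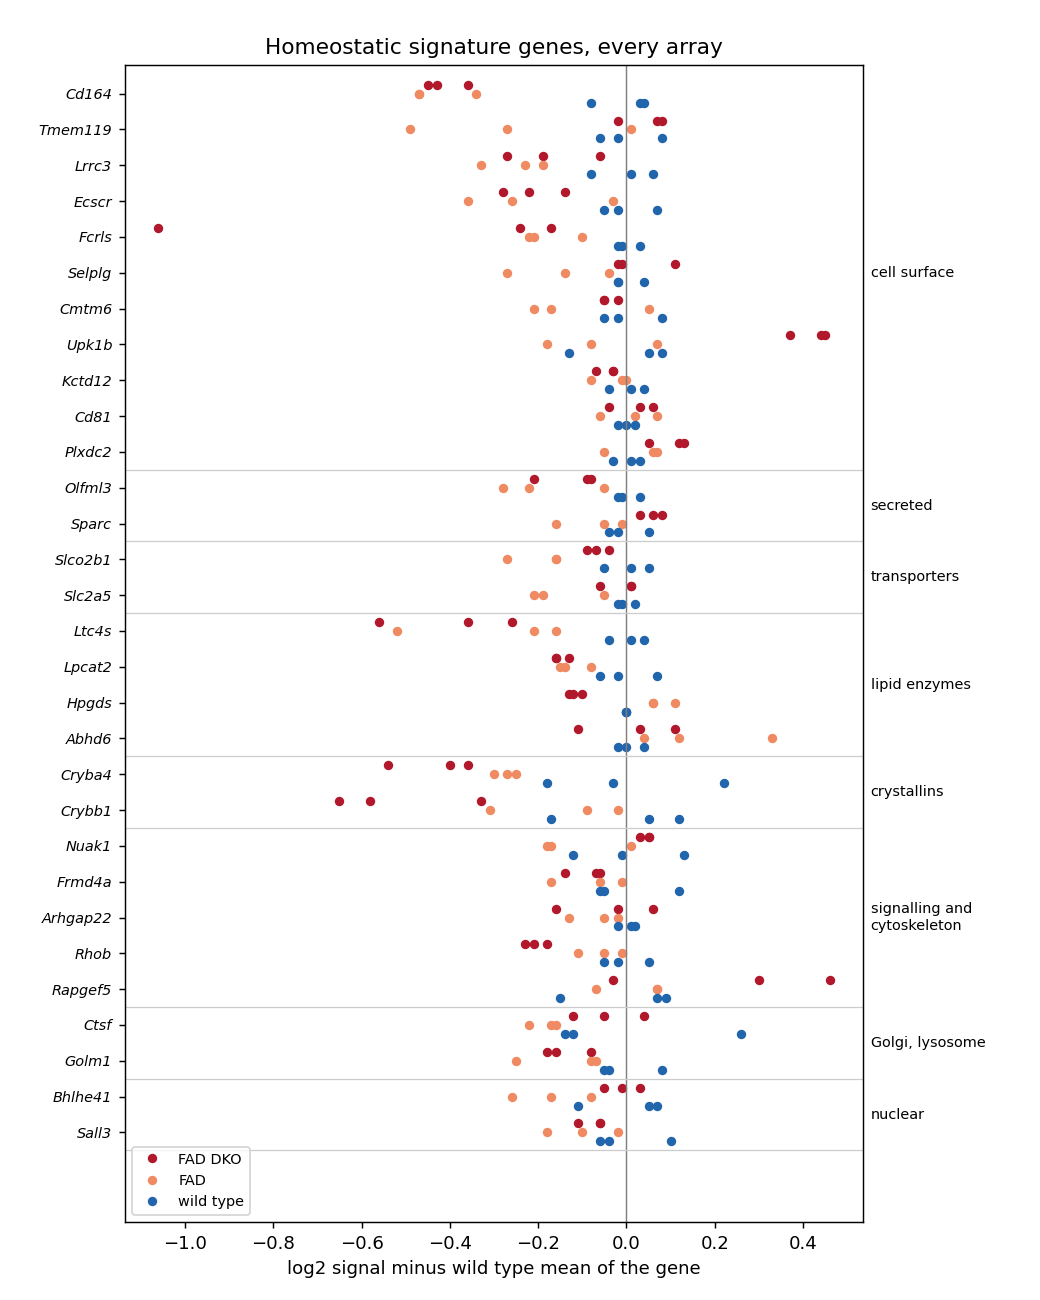
Log2 signal of each signature gene on each of the 9 arrays, minus that gene's wild type mean (x axis), with genes grouped by role (y axis) and FAD DKO, FAD and wild type drawn as separate rows of points. Cd164 has all FAD DKO and FAD points left of the wild type points, Upk1b has its FAD DKO points to the right, and 1 FAD DKO array lies far to the left for Fcrls.

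The arrays of a group did not carry the signature equally. The median of the 30 genes, each set against its wild type mean, was -0.06, -0.07 and -0.07 on FAD DKO replicates 1, 2 and 3. It was -0.20, -0.13 and -0.05 on FAD replicates 1, 2 and 3, and 0.00, 0.01 and -0.02 on those of wild type. FAD replicate 1 thus stood lowest and FAD replicate 3 was level with the FAD DKO arrays. FAD replicate 1 had 17 of the 30 genes at the lowest value among the FAD arrays and 14 at the lowest of all 9 arrays. On FAD replicate 3 the lowest FAD value was found for 4 genes. The SD of a single gene within groups was between 0.0185 and 0.287. For the spread of the signature, each gene was instead set against its mean over the 9 arrays. The median of the 30 genes was taken per array, and its SD among arrays of a group was pooled over the 2 groups compared. This SD was 0.0484 for FAD against wild type, 0.0474 for FAD DKO against FAD and 0.0217 for FAD DKO against wild type. The median differences of -0.13 and -0.06 from wild type were larger than this spread and that of 0.03 between FAD DKO and FAD was smaller, without a test. The SD describes single arrays and the differences compare group means, so the 2 are unlike measures.

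**Figure D2:**
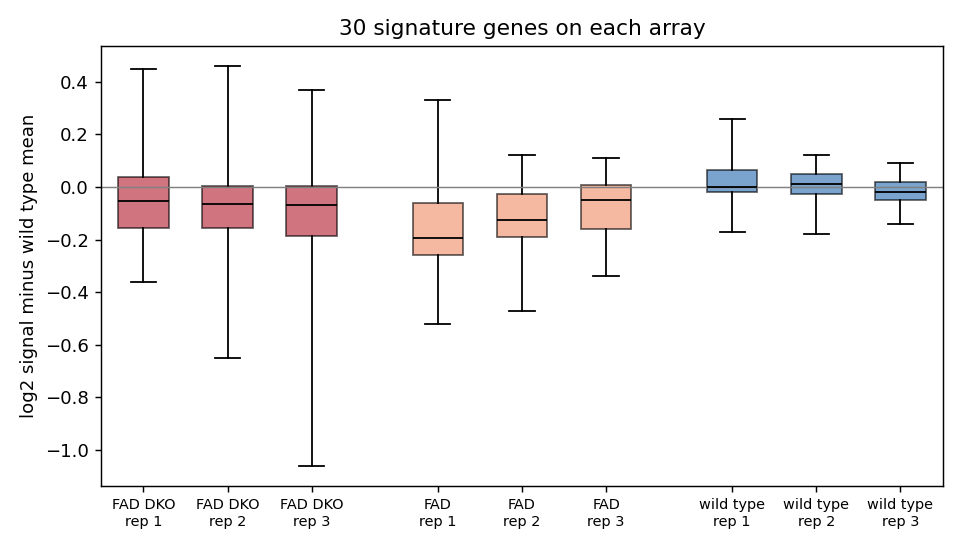
Distribution of the 30 signature genes on each array, as log2 signal minus the gene's wild type mean (y axis), with box, median line and whiskers to the lowest and highest gene, for the 3 arrays of FAD DKO, FAD and wild type (x axis). The FAD medians are -0.20, -0.13 and -0.05, and the long lower whisker of FAD DKO replicate 3 is Fcrls.

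A role group of cell surface proteins, which also took in Kctd12 as a binder of surface receptors, held 11 of the 30 genes. Cd164, a sialomucin of endosomes and the cell surface, had the largest difference of the signature between FAD and wild type. It stood at 11.06, 10.97 and 10.99 in FAD DKO and at 10.95, 10.95 and 11.08 in FAD, against 11.34, 11.45 and 11.46 in wild type. Every array of both FAD genotypes lay below every wild type array, and FAD DKO and FAD overlapped. The difference of FAD from wild type was -0.42 (SE 0.0702, 95% interval -0.58 to -0.26, limma adjusted p = 0.133), which is a signal 0.746 times that of wild type. FAD DKO minus wild type was -0.41 (SE 0.0702), and FAD DKO minus FAD was 0.01 (interval -0.15 to 0.17). The adjusted p ran from 0.0184 to 0.354 over the alternative settings for FAD against wild type, and from 0.012 to 0.276 for FAD DKO against wild type. It was under 0.05 with a low-signal filter and with a variance model that was trended and robust in both comparisons, and with array weights in the second.

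Upk1b, uroplakin 1b, a tetraspanin first known from the lining of the bladder, was the signature gene with the largest positive difference in FAD DKO. It stood at 10.06, 10.05 and 9.98 in FAD DKO, against 9.68, 9.53 and 9.43 in FAD and 9.69, 9.48 and 9.66 in wild type. All 3 FAD DKO arrays lay above all others, while FAD and wild type overlapped. The difference of FAD DKO from FAD was 0.48 (SE 0.0871, interval 0.29 to 0.68, limma adjusted p = 0.212), the largest difference of the signature in this comparison and a signal 1.4 times that of FAD. From wild type it differed by 0.42 in FAD DKO (limma adjusted p = 0.145, and 0.0428 to 0.394 over the alternative settings, the lowest with the trended and robust variance model). The FAD mean differed from wild type by -0.06 (interval -0.26 to 0.13).

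Tmem119, a transmembrane protein used as a surface marker of microglia, stood at 9.54, 9.45 and 9.55 in FAD DKO, against 8.98, 9.20 and 9.48 in FAD and 9.45, 9.55 and 9.41 in wild type. The FAD arrays were spread over 0.5 log2 units and the highest of them reached the level of the other groups. In FAD the difference from wild type was -0.25 (SE 0.117, unadjusted p = 0.0624), and -0.13 without FAD replicate 1 and -0.38 without FAD replicate 3. In FAD DKO the difference from FAD was 0.29 (unadjusted p = 0.0336, limma adjusted p = 0.572), and 0.17 without FAD replicate 1 and 0.43 without FAD replicate 3. FAD DKO minus wild type was 0.04 (interval -0.22 to 0.31).

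Selplg, the P-selectin ligand PSGL-1, lies next to Tmem119 in the gene order, with no other protein-coding gene between them. It stood at 11.96, 12.08 and 11.95 in FAD DKO, against 11.70, 11.83 and 11.93 in FAD and 11.95, 12.01 and 11.95 in wild type. As with Tmem119, FAD replicate 1 was the lowest array and FAD replicate 3 came near the other groups. FAD minus wild type was -0.15 (unadjusted p = 0.0833) and FAD DKO minus FAD was 0.18 (unadjusted p = 0.0485, and a difference of 0.12 without FAD replicate 1). A further probe set of Selplg gave -0.15 and 0.14 for these comparisons.

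Fcrls, a microglial Fc receptor-like protein, was decided by 1 array in FAD DKO. It stood at 11.18, 11.11 and 10.29 in FAD DKO and at 11.14, 11.25 and 11.13 in FAD, against 11.38, 11.33 and 11.34 in wild type. Both FAD genotypes lay below wild type on every array, but the third FAD DKO array lay far below the others. Its difference between FAD DKO and wild type was -0.49 (SE 0.199, unadjusted p = 0.0357), and -0.21 without FAD DKO replicate 3. FAD DKO minus FAD was -0.31, and -0.03 without that array.

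Lrrc3, a leucine-rich repeat membrane protein, stood at 8.13, 8.34 and 8.21 in FAD DKO and at 8.07, 8.21 and 8.17 in FAD, against 8.32, 8.41 and 8.46 in wild type. FAD lay below wild type on every array (-0.25, SE 0.0793, unadjusted p = 0.0122), and FAD DKO overlapped both groups. Ecscr, which regulates chemotaxis of endothelial cells, stood at 9.69, 9.61 and 9.55 in FAD DKO and at 9.57, 9.47 and 9.80 in FAD, against 9.90, 9.78 and 9.81 in wild type. FAD DKO lay below wild type on every array (-0.21, unadjusted p = 0.0478), whereas FAD overlapped wild type through replicate 3 (-0.22, unadjusted p = 0.0448).

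The remaining 4 genes of the surface group differed little. Cd81, a tetraspanin, had means of 12.25 in FAD DKO, 12.24 in FAD and 12.23 in wild type, and the 95% interval of each of its differences lay between -0.14 and 0.16. Plxdc2, a plexin domain protein, had means of 11.39 in FAD DKO, 11.32 in FAD and 11.29 in wild type, with FAD DKO above wild type on every array (0.10, unadjusted p = 0.161). Kctd12, which binds GABA-B receptors, had differences between -0.04 and -0.01. A further, dimmer probe set of Kctd12 gave -0.17 for FAD against wild type (unadjusted p = 0.0871) and 0.09 for FAD DKO against FAD (unadjusted p = 0.328). Cmtm6, which keeps PD-L1 at the cell surface, was at -0.11 in FAD and -0.04 in FAD DKO, each against wild type (unadjusted p = 0.191 and 0.63).

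**Figure D3:**
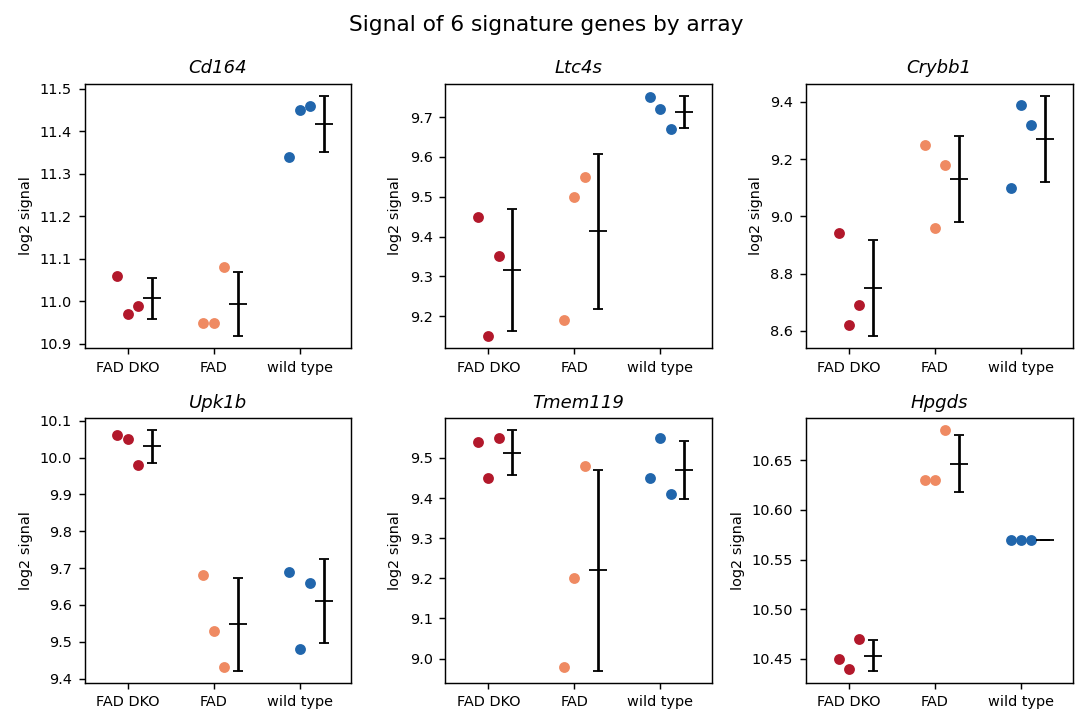
Log2 signal (y axis) of Cd164, Ltc4s, Crybb1, Upk1b, Tmem119 and Hpgds in FAD DKO, FAD and wild type (x axis), with a point per array and the mean and SD beside them (n = 3). The y axes do not start at 0 and differ between panels. Cd164 is low in both FAD genotypes, Upk1b is high and Hpgds low in FAD DKO, and Tmem119 is spread widely in FAD.

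Of the secreted proteins, Olfml3, an olfactomedin-like matrix protein, stood at 9.79, 9.80 and 9.67 in FAD DKO and at 9.66, 9.60 and 9.83 in FAD, against 9.87, 9.91 and 9.86 in wild type. Both FAD genotypes lay below every wild type array. For Olfml3 the difference of FAD from wild type was -0.18 (SE 0.0772, unadjusted p = 0.0456) and FAD DKO minus wild type was -0.13 (unadjusted p = 0.14). Sparc, a matricellular glycoprotein that binds collagen, stood at 10.63, 10.65 and 10.60 in FAD DKO, against 10.41, 10.52 and 10.56 in FAD and 10.62, 10.55 and 10.53 in wild type. FAD DKO lay above every FAD array (0.13, unadjusted p = 0.0778) and overlapped wild type.

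Both transporters followed a similar order. Slco2b1, an organic anion transporter, stood at 10.63, 10.60 and 10.58 in FAD DKO, against 10.40, 10.51 and 10.51 in FAD and 10.68, 10.72 and 10.62 in wild type. FAD lay below both other groups on every array. FAD minus wild type was -0.20 (SE 0.0643, unadjusted p = 0.0134) and FAD DKO minus FAD was 0.13 (unadjusted p = 0.0763). A further probe set of Slco2b1 gave -0.23 (unadjusted p = 0.0476) and 0.26 (unadjusted p = 0.0295), with FAD replicate 3 at 9.89, the level of its wild type arrays. Slc2a5, the fructose transporter GLUT5, stood at 9.33, 9.40 and 9.40 in FAD DKO, against 9.18, 9.20 and 9.34 in FAD and 9.38, 9.41 and 9.37 in wild type. FAD minus wild type was -0.15 (unadjusted p = 0.0529), FAD DKO minus FAD was 0.14 (unadjusted p = 0.0735) and FAD DKO minus wild type was -0.01 (interval -0.17 to 0.14).

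The 4 enzymes of lipid mediators had no common direction in FAD. In FAD DKO all 4 lay below FAD (median -0.12), as did 46.7% of all genes. Of these, Ltc4s (-0.09), Lpcat2 (-0.03) and Abhd6 (-0.16) overlapped FAD, and Lpcat2 changed sign with quantile normalization. Ltc4s, leukotriene C4 synthase, which joins glutathione to leukotriene A4, stood at 9.45, 9.15 and 9.35 in FAD DKO and at 9.19, 9.50 and 9.55 in FAD, against 9.75, 9.72 and 9.67 in wild type. Both FAD genotypes lay below every wild type array. In FAD DKO the difference from wild type was -0.39 (SE 0.112, unadjusted p = 0.00672, limma adjusted p = 0.344). FAD minus wild type was -0.30 (unadjusted p = 0.0259), and -0.19 without FAD replicate 1.

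Hpgds, the haematopoietic prostaglandin D synthase, was the signature gene with the smallest spread. It stood at 10.45, 10.44 and 10.47 in FAD DKO, against 10.63, 10.63 and 10.68 in FAD and 10.57, 10.57 and 10.57 in wild type. FAD DKO lay below both other groups on every array, and FAD lay above wild type. For Hpgds FAD DKO minus FAD was -0.19 (SE 0.0563, interval -0.32 to -0.07, limma adjusted p = 0.407) and FAD DKO minus wild type was -0.11 (unadjusted p = 0.0777). Its wild type values were identical to the last deposited digit, as were those of 638 of 41345 probe sets in the 3 wild type arrays, so the wild type SD of 0 is no measure of biological spread.

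Lpcat2, an acyltransferase that makes platelet-activating factor, stood at 10.14, 10.11 and 10.11 in FAD DKO and at 10.13, 10.12 and 10.19 in FAD, against 10.34, 10.25 and 10.21 in wild type. Both FAD genotypes lay below every wild type array, with differences of -0.15 in FAD DKO (unadjusted p = 0.0454) and -0.12 in FAD (unadjusted p = 0.0894). Abhd6, which hydrolyses the endocannabinoid 2-arachidonoylglycerol, stood at 7.01, 6.87 and 7.09 in FAD DKO, against 7.31, 7.10 and 7.02 in FAD and 6.96, 7.02 and 6.98 in wild type. It had the largest positive difference of the signature in FAD against wild type (0.16, unadjusted p = 0.113), and FAD DKO and wild type overlapped.

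Crybb1 and Cryba4 encode beta crystallins, structural proteins of the eye lens that microglia also express. They are neighbours whose gene spans overlap in the RefSeq annotation, although the starts used below lie apart and on opposite strands. Both were lowest in FAD DKO. Crybb1 stood at 8.94, 8.62 and 8.69 in FAD DKO, against 9.25, 8.96 and 9.18 in FAD and 9.10, 9.39 and 9.32 in wild type. Its FAD DKO arrays lay below all others, and FAD overlapped wild type. FAD DKO minus wild type was -0.52 (SE 0.118, interval -0.79 to -0.26, limma adjusted p = 0.188), the largest difference of the signature in this comparison. FAD DKO minus FAD was -0.38 (SE 0.118, limma adjusted p = 0.434), and FAD minus wild type was -0.14 (unadjusted p = 0.268).

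Cryba4 stood at 8.21, 8.03 and 8.17 in FAD DKO and at 8.32, 8.30 and 8.27 in FAD, against 8.79, 8.39 and 8.54 in wild type. The 3 groups did not overlap, with FAD between the others. For Cryba4 FAD DKO minus wild type was -0.43 (SE 0.103, limma adjusted p = 0.217) and FAD minus wild type was -0.28 (unadjusted p = 0.0252). Without wild type replicate 1, which was the highest array, these were -0.32 and -0.17. FAD DKO minus FAD was -0.16 (unadjusted p = 0.157).

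The sequences of 250 bases before the annotated start are shown for Cd164, Crybb1 and Cryba4, the 3 genes with the smallest p among those lower in FAD DKO than in wild type for which a start was listed. They are from RefSeq, assembly GRCm38.p6, read 5′ to 3′ on the gene's strand. Capitals mark GAGGAA, the core bound by the myeloid factor PU.1, and TGCTGA, a partial site of MAF factors, each sought on both strands. These are matches of letters, and no binding was measured.
Cd164, chr10:41519250-41519499, plus strand: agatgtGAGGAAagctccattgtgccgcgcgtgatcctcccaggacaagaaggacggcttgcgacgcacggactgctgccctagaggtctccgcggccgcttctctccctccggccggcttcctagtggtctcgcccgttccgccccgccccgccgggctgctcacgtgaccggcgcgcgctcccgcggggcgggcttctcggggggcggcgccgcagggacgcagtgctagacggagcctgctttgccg
Crybb1, chr5:112255570-112255819, plus strand: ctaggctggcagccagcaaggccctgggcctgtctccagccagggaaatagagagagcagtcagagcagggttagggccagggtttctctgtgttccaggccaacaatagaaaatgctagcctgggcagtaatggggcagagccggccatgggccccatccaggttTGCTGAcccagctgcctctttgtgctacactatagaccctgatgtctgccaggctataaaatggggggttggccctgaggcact
Cryba4, chr5:112252519-112252768, minus strand: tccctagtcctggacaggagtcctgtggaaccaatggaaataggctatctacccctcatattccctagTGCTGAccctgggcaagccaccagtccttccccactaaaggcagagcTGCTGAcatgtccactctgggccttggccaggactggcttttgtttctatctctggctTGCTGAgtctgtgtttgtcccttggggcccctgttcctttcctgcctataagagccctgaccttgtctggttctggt

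The 3 sequences differed in kind. That of Cd164 was 71.6% G and C and held 33 CpG pairs, whereas those of Crybb1 and Cryba4 were 58% and 54.4% G and C and held 1 and 0 CpG pairs. Crybb1 had 1 TGCTGA, ending 78 bases before the start, and Cryba4 had 3, ending 176, 129 and 71 bases before it. Over the 24 measured signature genes with a listed start (31 windows), TGCTGA was found in 25.8% of windows, against 16.1% of the 32851 windows of all genes. GAGGAA was found in 25.8%, against 23.3%. The letters GGGCGG of the Sp1 GC box were found in 51.6%, against 32.7%, the E-box CACGTG in 9.68%, against 6.02%, and the AP-1 letters TGANTCA in 0, against 6.75%. Each was sought on both strands within these 250 bases, and the differences were not tested.

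Of the 5 regulators of GTPases, kinases and the cytoskeleton, Rhob, a small GTPase of endosomes, was the one with an unadjusted p under 0.05. It stood at 9.11, 9.13 and 9.16 in FAD DKO, against 9.29, 9.23 and 9.33 in FAD and 9.29, 9.39 and 9.32 in wild type. FAD DKO lay below every other array. FAD DKO minus FAD was -0.15 (SE 0.0624, unadjusted p = 0.0392) and FAD DKO minus wild type was -0.20 (unadjusted p = 0.00959, limma adjusted p = 0.393). Nuak1, a kinase of the AMPK family, stood at 9.15, 9.13 and 9.15 in FAD DKO, above the FAD values of 8.93, 8.92 and 9.11 (0.16, unadjusted p = 0.0899) and within the wild type range of 8.98 to 9.23. Rapgef5, an activator of Rap GTPases, stood at 9.69, 9.85 and 9.36 in FAD DKO, a spread that overlapped FAD (9.32, 9.46 and 9.46) and wild type (9.24, 9.46 and 9.48). Arhgap22, which inactivates Rac, and Frmd4a, a scaffold of cell polarity, had differences between -0.09 and 0.03, with unadjusted p of 0.264 or above.

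The genes of the Golgi, the lysosome and the nucleus lay lower in FAD without passing an unadjusted p of 0.05. Golm1, a Golgi membrane protein, had means of 9.91 in FAD DKO and 9.91 in FAD, against 10.05 in wild type, and both FAD genotypes lay below every wild type array. Ctsf, the lysosomal protease cathepsin F, stood at 8.88, 8.72 and 8.79 in FAD DKO, against 8.62, 8.68 and 8.67 in FAD and 9.10, 8.72 and 8.70 in wild type. Its difference in FAD of -0.18 from wild type (unadjusted p = 0.124) leaned on wild type replicate 1. Bhlhe41, a transcriptional repressor of the circadian clock, had a mean of 8.96 and a lowest value of 8.92 in FAD DKO, against 8.71, 8.89 and 8.80 in FAD and 9.04, 9.02 and 8.86 in wild type. FAD DKO lay above every FAD array (0.16, unadjusted p = 0.0674). Sall3, a zinc finger transcription factor, had means of 7.91 in FAD DKO, 7.88 in FAD and 7.98 in wild type.

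**Figure D4:**
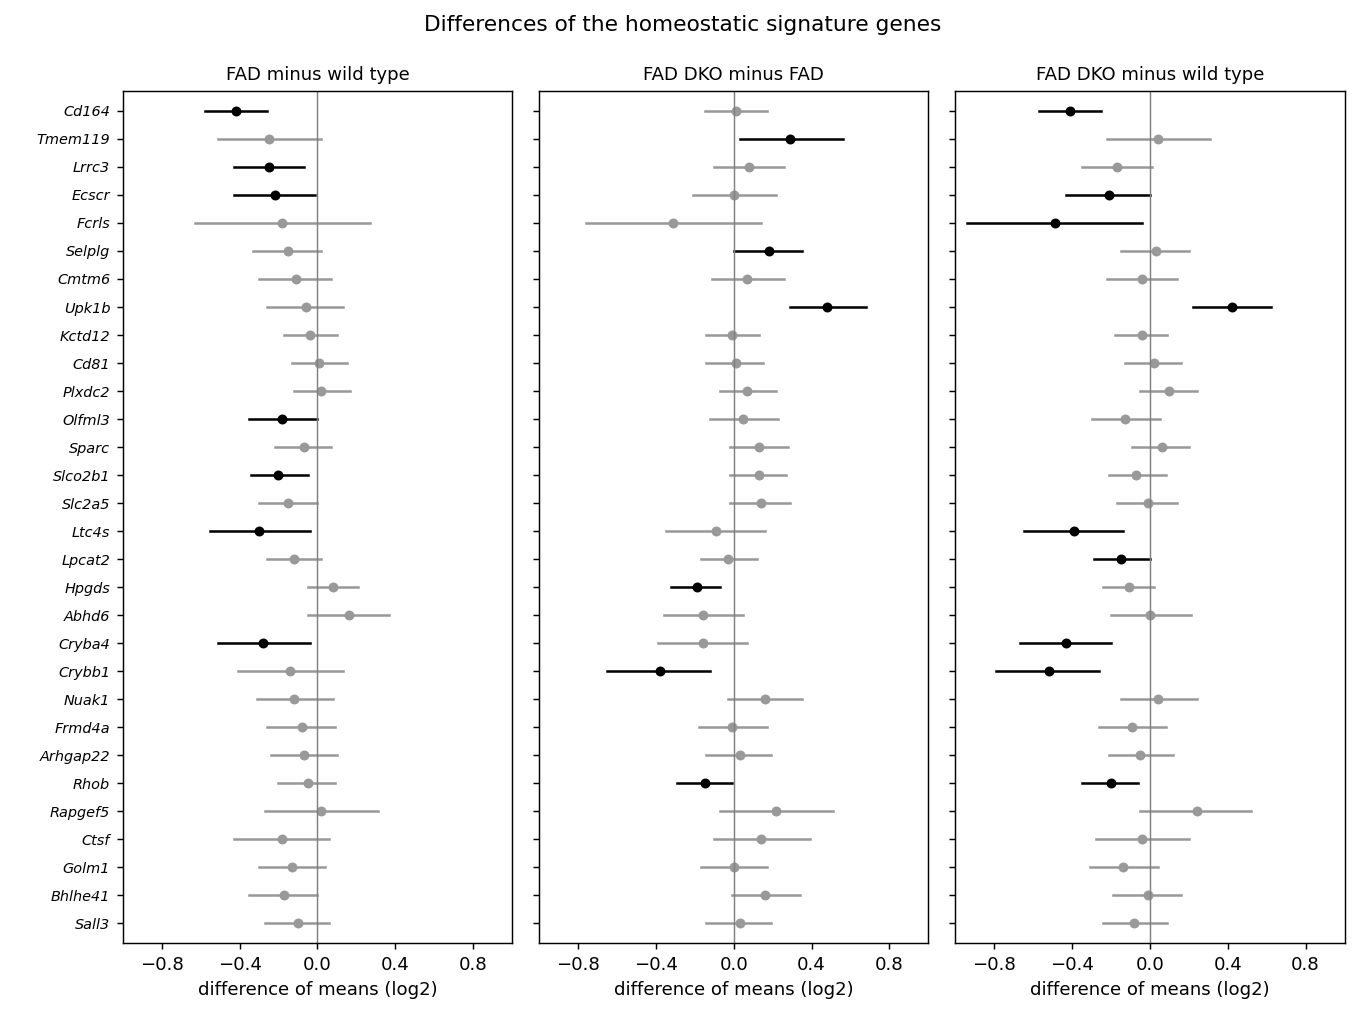
Difference of group means (log2, x axis) of each signature gene (y axis) with its 95% interval from limma, in 3 panels, 1 for each comparison, with the groups subtracted named above the panel. Intervals in black have an unadjusted p under 0.05 and those in grey do not. The black intervals number 7 for FAD against wild type, 6 for FAD DKO against FAD and 9 for FAD DKO against wild type.

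Set side by side, the group means fell into different orders. FAD had the lowest mean for 16 of 30 genes, FAD DKO for 10 and wild type for 4, while wild type had the highest mean for 20, FAD DKO for 8 and FAD for 2. Among the genes lowest in FAD were Tmem119, Selplg, Slco2b1 and Slc2a5, and among those lowest in FAD DKO were Crybb1, Cryba4, Ltc4s, Rhob and Hpgds. Many neighbours in these orders lay closer than the spread, such as the Cd81 means, which lay within 0.02 with an SD within groups of 0.0486.

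Other genes of the homeostatic state, outside the signature, were read beside it. Of 32 such genes 28 were measured, among them purinergic receptors, TGF-beta receptors and identity transcription factors. In limma 0 passed over all genes in either direction in any of the 3 comparisons. In FAD 20 of 28 lay below wild type (median -0.06), against 52.1% of all genes. At an unadjusted p under 0.05, 1 of 28 was lower (4.02% of all genes) and 0 were higher (4.41%). The lower gene was P2ry6, a receptor for UDP (-0.22, unadjusted p = 0.02). In FAD DKO 12 of 28 lay below FAD (median 0.01), against 46.7% of all genes. At an unadjusted p under 0.05, 1 of 28 was lower (4.41% of all genes) and 0 were higher (3.69%). The lower gene was Cx3cr1, the fractalkine receptor whose locus holds the Cre (-0.25, unadjusted p = 0.00488). In FAD DKO 21 of 28 lay below wild type (median -0.03), against 48.6% of all genes. At an unadjusted p under 0.05, 3 of 28 were lower (4.19% of all genes) and 1 was higher (3.95%). Lower were Cx3cr1 (-0.33), the lysophosphatidylserine receptor Gpr34 (-0.21) and the ADP receptor P2ry12 (-0.18), and the transcription factor Irf8 was higher (0.20). Against wild type, the median difference of 24 measured plaque-associated genes was 1.18 in FAD DKO and 0.75 in FAD. Their summed linear signal was 30404, 35332 and 31677 on FAD replicates 1, 2 and 3. It was 32281 to 35749 in FAD DKO and 26559 to 28074 in wild type. Whether these genes and the signature moved together was not tested. After adjustment over all genes, 8 of the 24 were higher in FAD DKO (0.14% of all genes were called in either direction) and 1 in FAD (0.0406%), the lipoprotein lipase gene Lpl, at 2.65 in FAD DKO and 2.98 in FAD. Set against FAD directly, FAD DKO had 18 of the 24 above 0 with a median of 0.08, and limma called 0 after adjustment. At an unadjusted p under 0.05, 4 were higher (3.69% of all genes) and 1 was lower (4.41%).

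Some signature genes are also expressed by other cells of the brain, for instance Sparc and Ecscr by endothelial cells, so markers of other cells were read beside them. The summed linear signal of 12 endothelial and mural markers was 381 to 414 in FAD DKO, 373 to 391 in FAD and 373 to 399 in wild type, and 8 of the 12, Cldn5 among them, had means below the median of all probe sets. Single markers of this list lay on both sides. Flt1, a VEGF receptor, rose in FAD DKO against wild type (1.26, limma adjusted p = 0.00872) and was at 0.85 in FAD (adjusted p = 0.0647). Against wild type, Pecam1 was at -0.45 in FAD DKO and -0.27 in FAD. Tek, with a mean below the median of all probe sets, was at -0.30 in FAD DKO and -0.33 in FAD. Of the 12 markers, 7 lay above wild type in FAD DKO (median 0.01) and 4 in FAD (median -0.09). In FAD DKO 10 of the 12 lay above FAD (median 0.12). The sum of 9 markers of perivascular and border macrophages was 707 to 821 in FAD DKO and 836 to 880 in FAD, against 938 to 1052 in wild type. These ranges did not overlap, but Stab1, a scavenger receptor, made up much of the sum. Without Stab1, in a sum chosen after seeing the data, the other 8 markers gave 365, 393 and 304 in FAD DKO and 399, 369 and 334 in FAD, against 350, 416 and 356 in wild type, and the groups overlapped. The median log2 level of the list overlapped too, at 5.37 to 5.73 in FAD DKO, 5.46 to 5.83 in FAD and 5.39 to 5.73 in wild type. Of the single markers, 7 of the 9 lay below wild type in FAD DKO and 6 in FAD, and Cd163, Lyve1 and Cbr2 had means below the median of all probe sets. Stab1 itself was at -0.58 in FAD DKO and -0.33 in FAD against wild type. The sum of 12 monocyte and neutrophil markers varied most. It was 1217, 6163 and 3486 in FAD DKO, 3444 to 3609 in FAD and 1940 to 3852 in wild type. Of these 12 markers, 11 lay above wild type in FAD (median 0.24), 10 lay below FAD in FAD DKO (median -0.15) and 9 lay above wild type in FAD DKO (median 0.04), with 0 called by limma and 1 at an unadjusted p under 0.05, lower in FAD DKO than in FAD. Sums of 10 neuronal, 10 astrocyte, 9 oligodendrocyte lineage and 9 lymphocyte markers were between 193 and 604 on every array. Over all genes, 52.1% lay below 0 in FAD against wild type, 46.7% in FAD DKO against FAD and 48.6% in FAD DKO against wild type. The part of these cells in the differences was not tested.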

How the data were processed

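The authors deposited 1 log2 signal per probe set and array, made with RMA per the submitters' processing notes, after amplification and biotin labelling of total RNA per the labels' protocols. The log2 scale was read from the values. Not given in the sources used here are the version, the summary level and the genome build, and scanner signals were not used here. Of 41345 probe sets, 25335 were listed in the platform annotation, 23521 with 1 symbol, and the brightest per symbol left 22180 genes.

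The test was limma's moderated test (version 3.58.1, R 4.3.3, with 1 mean per group, all 9 arrays, 6 residual degrees of freedom, 8.98 after moderation), two-sided, with Benjamini-Hochberg adjustment over all genes of each of the 3 comparisons. The 95% intervals come from this fit, and precision is limited by the 3 arrays per group. The fit was tested on simulated data. Alternatives were leaving out each array in turn, blocking on the replicate number, averaging the probe sets of a gene, array weights, a fit of the 2 groups alone, quantile normalization, a variance model with trend and robust prior, and a low-signal filter (mean of at least 5.35). Values of every array are printed for genes with an unadjusted p under 0.05 or among the 4 largest changes of a comparison, and for further signature genes that stand for a role. The signature genes and lists were chosen with earlier results of these data known. Figures were drawn with matplotlib 3.10.9 in Python 3.11.15.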

Additional observations from a re-analysis of the deposited data

How the results depend on the processing

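All 24 differences of single signature genes that met the rule for printed arrays kept their sign under each of 16 alternatives. Among the other signature genes the signs that changed belonged to differences of at most 0.05. Several alternatives cannot change a difference of means. These are the filter, the variance model, the fit of 2 groups, the replicate block and leaving out an array of the group not compared. The 24 were also picked for a small p or a large change in these data, so their kept signs are weak support. The number of signature genes called was 0 in the 9-array fit of each comparison and when any 1 array was left out. For FAD minus wild type it was 1 with a low-signal filter and 1 with a variance model that was trended and robust. For FAD DKO minus wild type it was 1 with the filter, 2 with that variance model and 1 with array weights; filtering tests fewer genes, and for the others the cause was not tested. Signature genes with an unadjusted p under 0.05 numbered 12 in place of 7 for FAD minus wild type and 10 in place of 6 for FAD DKO minus FAD with the trended and robust variance model. When 1 array was left out they ranged from 3 to 11 and from 3 to 7 in these comparisons. The median difference of the signature then ranged from -0.16 to -0.10 for FAD minus wild type, from 0.00 (without FAD replicate 1) to 0.07 (without FAD replicate 3) for FAD DKO minus FAD, and from -0.10 (without wild type replicate 3) to -0.05 for FAD DKO minus wild type.

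Calls over all genes varied more. For FAD minus wild type, 9 genes became 33 with the filter, 43 with the variance model, 5 with only the 2 groups and 22 with array weights, and 8 to 12 without 1 array. For FAD DKO minus FAD, 5 became 11, 12 and 0 with the first 3 of these, 3 with quantile normalization, 2 with the replicate block, and 0 to 5 without 1 array. For FAD DKO minus wild type, 31 became 117, 124, 13 and 82 with the 4 settings, 11 with the replicate block, and 2 to 28 without 1 array. The deviations of arrays of the same replicate number from their group means had correlations across genes between -0.11 and 0.12. Arrays of different number were not compared in this way, so whether the number pairs arrays cannot be told. The block left 0 signature genes called. Signal over background was not analysed.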
